A study of Mus musculus with 12 samples.

Results

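A set of 34 genes of cholesterol, fatty acid and myelin lipid synthesis, out of 18193 genes with exactly 1 annotated symbol, were examined in mice lacking exon 5 of Gdap1 (Gdap1-/-) and in wild type mice. The rule takes genes by symbol and uses no measured value, though the set was drawn up with earlier results of these data known: 6 of the mevalonate pathway, 3 that make squalene and lanosterol, 8 that turn lanosterol into cholesterol, 5 of the SREBP control system, 5 of fatty acid synthesis and first desaturation, 5 elongases and further desaturases, and 2 that make myelin galactolipids. All 34 were on the array, through 78 probe sets, and the probe set with the highest mean over 12 arrays stood for the gene. The GDAP1 protein sits in the outer membrane of mitochondria in neurons and Schwann cells, and mutations of the gene underlie forms of Charcot-Marie-Tooth neuropathy.

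The 4 groups of 3 arrays were: laser-captured motoneurons of Gdap1-/- mice, laser-captured motoneurons of wild type mice, sciatic nerve lysates of Gdap1-/- mice and sciatic nerve lysates of wild type mice. Every mouse was 2 months old and untreated, and 20 ng of total RNA was amplified for each array. The design text gives RNA of 5 mice, without saying whether that is per group, and 3 samples per tissue and genotype were chosen for amount and quality of RNA. The design text places the Gdap1 probe sets in exon 4 and exon 6, outside the deleted exon 5, so Gdap1 values check nothing about the labels. The replicates are labelled biological; whether a nerve sample and a motoneuron sample share a mouse was not stated in the sources used here.

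Values are log2 expression per probe set. Array medians were 6.53 to 6.59 in motoneurons and 8.29 to 8.40 in nerve, a gap that scaling within each tissue would leave, so the direction of tissue differences was compared on 3 scales, and values with no other scale named are on the deposited one. In nerve, the myelinating Schwann cell markers Egr2 and Pmp2 had group means of 13.86 to 14.69, and the adipocyte markers averaged 12.78 in KO and 12.73 in WT. In motoneurons the vesicular acetylcholine transporter Slc18a3 averaged 12.4 in KO and 12.2 in WT, against 5.4 and 5.7 in nerve, but Chat, the other defining marker, read no higher in motoneurons (4.6 in KO and 4.8 in WT) than in nerve (5.2 and 5.1) on the deposited scale. Ranked within its array, Chat stood at percentiles 22.6 to 37.9 in motoneurons and 13.7 to 17.8 in nerve. The oligodendrocyte markers averaged 10.71 in KO motoneurons and 11.07 in WT motoneurons, with the myelin gene Mog at 11.6 and 11.9. The bacterial spike-in bioB read 10.2 to 10.4 on the 6 KO arrays and 10.8 to 11.5 on the 6 WT arrays; the part of that spread in any genotype difference was not tested. Xist was low on 1 of 6 motoneuron arrays, KO replicate 2, and high on 2 of 6 nerve arrays, KO replicate 3 and WT replicate 2.

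Cells build cholesterol from acetyl-CoA through mevalonate, the isoprenoids, squalene and lanosterol. When sterols in the endoplasmic reticulum are scarce, SCAP escorts SREBP proteins to the Golgi for cleavage and the released fragment switches on most enzymes of the route; INSIG proteins hold the SCAP-SREBP complex back when sterols are plentiful. Myelin is rich in cholesterol and in galactosylceramide with long, often 2-hydroxylated fatty acids, and myelinating Schwann cells and oligodendrocytes make most of it themselves, whereas adult neurons are thought to take up much of their cholesterol from glia.

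The promoters of 27 of the 34 genes were held in the RefSeq table (GRCm38.p6), in 36 windows of 250 bases before an annotated start; Fdps, Fdft1, Sqle, Scd1, Scd2, Fads1 and Fa2h had none there. The 4 motifs below were searched on both strands: the sterol regulatory element core CACNCCAC, its longer form TCACNCCAC, which contains it, the CCAAT box bound by NF-Y, a partner of SREBP, and the E-box CACGTG, which SREBP1 can also bind. CCAAT was in a window of all 14 sterol synthesis genes that had one and of 7 of the other 13 members, against 37.5% of all 27025 genes in the table. CACNCCAC was in the window of Hmgcs1 and of Insig1 (6.05% of all genes), TCACNCCAC in that of Hmgcs1 (1.22%), and CACGTG in those of Hsd17b7, Sc5d, Dhcr7, Insig1, Scap and Elovl5 (6.86%). The 3 windows shown first are those of sterol-controlled genes (Hmgcs1, the first committed enzyme, Insig1, the feedback regulator, and Msmo1, a late enzyme). The arrays of Hmgcs1 and Msmo1 are described below with the other sterol synthesis genes, a group that does not include Insig1. The fourth, of the galactolipid enzyme Ugt8a, is shown because it was low on motoneuron KO replicate 2, where the sterol synthesis genes were high. Capitals mark matches to the motifs on either strand, and each window runs 5′ to 3′ on the gene's own strand.
Hmgcs1 (chr13:119690101-119690350, plus strand): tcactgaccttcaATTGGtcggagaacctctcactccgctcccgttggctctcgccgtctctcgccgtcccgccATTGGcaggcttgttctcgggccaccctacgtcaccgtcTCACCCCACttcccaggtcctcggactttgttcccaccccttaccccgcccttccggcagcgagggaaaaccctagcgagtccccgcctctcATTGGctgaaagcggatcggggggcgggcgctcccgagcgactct
Insig1 (chr5:28071162-28071411, plus strand): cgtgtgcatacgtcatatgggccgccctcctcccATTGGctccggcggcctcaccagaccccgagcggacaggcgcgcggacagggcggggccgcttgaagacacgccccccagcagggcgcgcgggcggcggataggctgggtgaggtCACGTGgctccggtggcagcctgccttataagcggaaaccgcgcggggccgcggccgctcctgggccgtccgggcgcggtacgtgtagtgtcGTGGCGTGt
Msmo1 (chr8:64733579-64733828, minus strand): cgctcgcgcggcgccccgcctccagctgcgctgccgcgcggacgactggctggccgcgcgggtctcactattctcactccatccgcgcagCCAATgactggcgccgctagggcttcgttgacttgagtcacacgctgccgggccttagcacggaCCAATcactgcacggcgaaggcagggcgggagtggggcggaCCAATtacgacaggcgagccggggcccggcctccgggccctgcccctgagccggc
Ugt8a (chr3:125938653-125938902, minus strand): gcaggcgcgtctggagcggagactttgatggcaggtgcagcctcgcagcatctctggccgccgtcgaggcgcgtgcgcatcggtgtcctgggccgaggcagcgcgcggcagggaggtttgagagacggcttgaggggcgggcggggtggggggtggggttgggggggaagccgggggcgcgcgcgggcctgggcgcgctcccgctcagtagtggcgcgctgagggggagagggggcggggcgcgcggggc
Hmgcs1 holds 1 sterol element core in its longer form and 3 CCAAT boxes, Insig1 1 core, 1 CCAAT box and 1 E-box, Msmo1 3 CCAAT boxes, and Ugt8a none of these. A match describes letters only, and no match says only that these letters are not in this window.

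In both genotypes, Elovl1, Elovl6, Fads1, Fads2, Scd1 and the galactolipid enzymes Fa2h and Ugt8a were lower in motoneurons than in nerve on every scale. The median of the sterol synthesis genes was near that of all genes as deposited and after centring, and below it after joint quantile normalization. On the deposited scale 31 of 34 members were lower and none higher in KO motoneurons than in KO nerve (limma, adjusted p under 0.05). By the same test, 33 were lower and none higher in WT motoneurons than in WT nerve. Of all probe sets, 67.5% were lower and 15.2% higher in KO, and 67.9% lower and 14.3% higher in WT, and the median of all genes was -0.86 in KO and -0.90 in WT. The members had a median of -1.34 in KO and -1.32 in WT. With the arrays of both tissues quantile normalized together, 24 members were lower and 2 higher in each genotype (background 33.6% lower and 40.5% higher in KO, 32.9% and 39.6% in WT). With each array centred on its median, 9 were lower and 18 higher in KO, and 9 lower and 19 higher in WT (background 24.8% lower and 56.6% higher in KO, 24.7% and 54.9% in WT). On all 3 scales and in both genotypes, 8 genes passed as lower in motoneurons: Lss, Scd1, Elovl1, Elovl6, Fads1, Fads2, Fa2h and Ugt8a. Another 4 were lower on every scale without passing on each (Fdps, Sc5d, Srebf1 and Acaca), 1 was higher on every scale (Insig2), and 21 changed sign with the scale. In lysates and captured tissue, fewer cells of a type and less RNA per cell cannot be told apart.

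**Figure D1:**
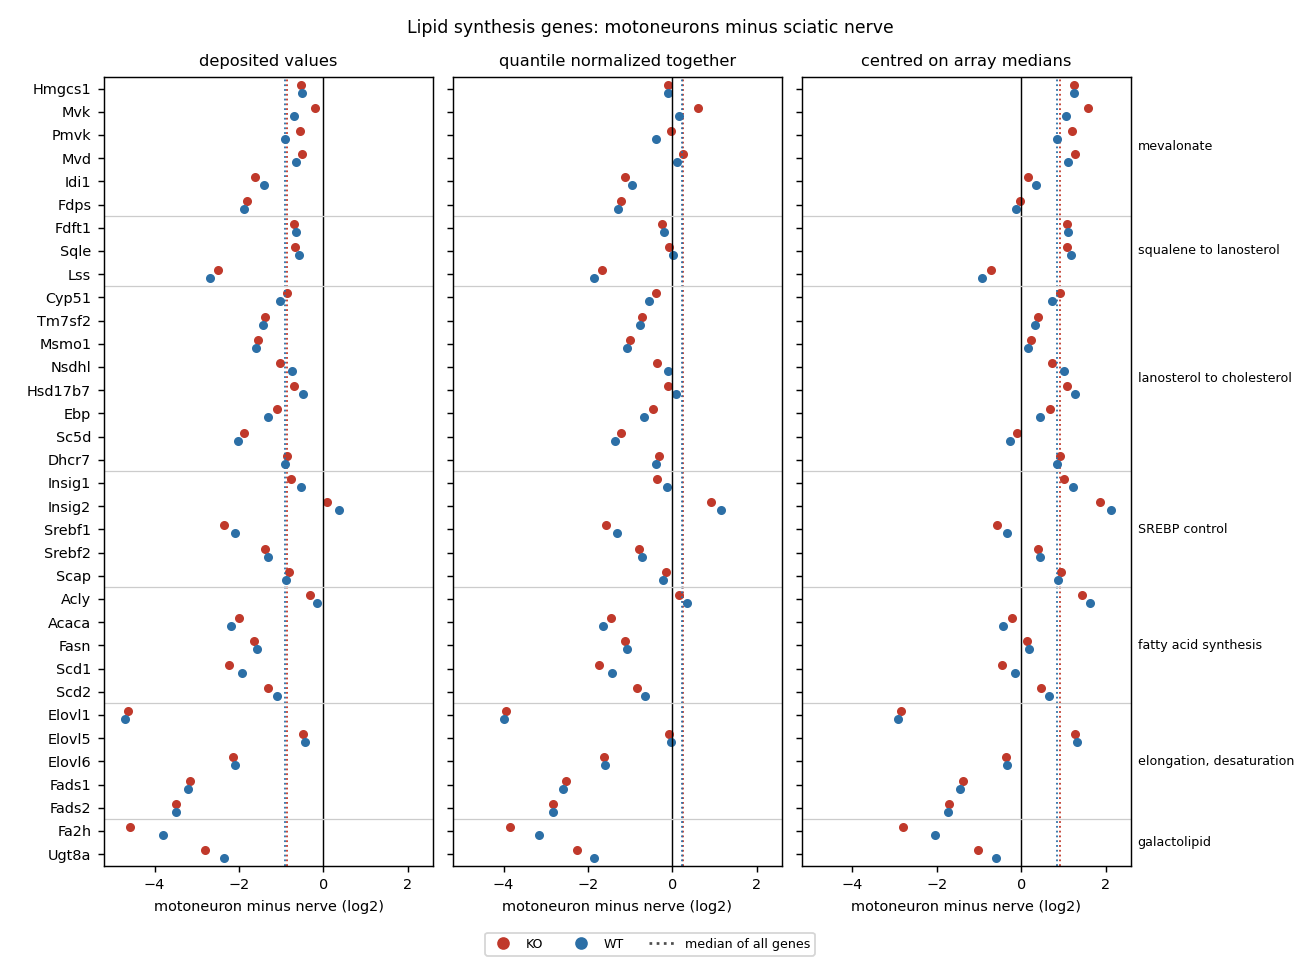
Difference between motoneurons and sciatic nerve (log2, x axis) for each of the 34 genes, grouped by role, on the deposited scale, after quantile normalization of both tissues together and after centring on array medians. Points are fits over 3 arrays per tissue in KO (red) and WT (blue) mice, and dotted lines mark the median of all genes; Elovl1, Fads1, Fads2 and Fa2h lie left of zero and of that median in every panel, and Insig2 lies right of zero in every panel.

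Elovl1, which elongates saturated fatty acids to the very long chains of myelin sphingolipids, had the largest difference of all members. It read 9.94, 10.19 and 9.96 in KO motoneurons and 10.15, 9.54 and 10.10 in WT motoneurons, against 14.67, 14.54 and 14.76 in KO nerve and 14.48, 14.65 and 14.73 in WT nerve. No motoneuron array came within 4 log2 units of a nerve array. The difference was -4.63 in KO (SE 0.10, adjusted p = 3.94e-09 by limma), a ratio of 0.0405, and -4.69 in WT (SE 0.17, adjusted p = 2.19e-07). It stayed at -3.94 and -4.00 after joint quantile normalization and at -2.85 and -2.93 after centring. Within an array, which no scaling moves, its probe set stood at percentile 76.1 in KO motoneurons and 75.5 in WT motoneurons, against 99.2 and 99.2 in nerve. Its relative Elovl5, which elongates polyunsaturated fatty acids, differed by -0.50 in KO and -0.43 in WT, and by -0.074 and -0.023 after joint quantile normalization. The log ratio of Elovl1 to Elovl5, which no shift of a whole array moves, differed between motoneurons and nerve by -4.13 in KO and -4.26 in WT.

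Elovl6, which takes palmitate to stearate, read 12.14, 11.97 and 12.20 in KO motoneurons and 12.24, 12.14 and 11.92 in WT motoneurons, against 14.32, 14.24 and 14.16 in KO nerve and 14.23, 14.16 and 14.22 in WT nerve. The groups did not overlap, and the difference was -2.13 in KO and -2.10 in WT (adjusted p = 3.91e-08 and 4.68e-07 by limma). Fads1 and Fads2 introduce the double bonds of long polyunsaturated fatty acids and are neighbouring genes. Fads1 read 10.58, 10.46 and 10.93 in KO motoneurons and 10.81, 10.55 and 10.48 in WT motoneurons, against 13.77, 13.76 and 13.91 in KO nerve and 13.77, 13.81 and 13.92 in WT nerve. Fads2 read 10.51, 10.30 and 10.54 in KO motoneurons and 10.57, 9.86 and 10.82 in WT motoneurons, against 13.90, 13.83 and 14.08 in KO nerve and 13.85, 13.83 and 14.04 in WT nerve. Both were lower on every motoneuron array than on any nerve array, with differences for Fads1 of -3.16 in KO and -3.22 in WT and for Fads2 of -3.49 in KO and -3.49 in WT, with adjusted p of at most 3.14e-06 by limma.

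Both galactolipid genes were lower in motoneurons. Fa2h, which adds the 2-hydroxyl group to the fatty acids of myelin galactolipids, read 9.76, 9.11 and 9.48 in KO motoneurons and 10.72, 10.10 and 9.87 in WT motoneurons, against 14.09, 13.81 and 14.18 in KO nerve and 13.87, 14.04 and 14.20 in WT nerve. Ugt8a, which joins galactose to ceramide, read 12.11, 10.85 and 11.91 in KO motoneurons and 12.58, 12.19 and 11.54 in WT motoneurons, against 14.43, 14.31 and 14.52 in KO nerve and 14.42, 14.40 and 14.56 in WT nerve. Neither gene's tissues overlapped. Fa2h differed by -4.58 in KO (SE 0.17) and -3.81 in WT (SE 0.21), and Ugt8a by -2.80 (SE 0.28) and -2.35 (SE 0.23), with adjusted p of at most 3.07e-05 by limma. The Ugt8a level in motoneurons, at a mean percentile of 87.8 in KO and 90.9 in WT, stood beside oligodendrocyte markers at 10.94, 10.46 and 10.73 in KO and 11.38, 10.80 and 11.03 in WT; the part of those cells in it was not tested.

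Among the genes of fatty acid synthesis, Scd1 was lower in motoneurons on every scale, while the direction of Acly, Fasn and Scd2 depended on the scale. Scd1, a stearoyl-CoA desaturase abundant in fat and in Schwann cells, read 12.87, 13.17 and 12.90 in KO motoneurons and 13.37, 13.22 and 13.33 in WT motoneurons, against 15.24, 15.37 and 15.06 in KO nerve and 15.27, 15.24 and 15.17 in WT nerve. It differed by -2.24 in KO and -1.92 in WT and by -0.47 and -0.16 after centring, passing each time. Scd2, the main isoform in brain, differed by -1.30 in KO and -1.09 in WT but by 0.47 and 0.67 after centring. Acaca, the rate-limiting acetyl-CoA carboxylase, differed by -2.00 in KO and -2.18 in WT, and Fasn, the fatty acid synthase, by -1.64 and -1.57. Fasn turned positive after centring (0.14 and 0.19). Acly, which makes cytosolic acetyl-CoA from citrate, differed by -0.33 in KO and -0.14 in WT on the deposited scale and by 0.16 and 0.34 after joint quantile normalization. Its other probe sets differed in direction on the deposited scale. One gave 0.89 in KO and 1.22 in WT and passed, another -0.070 and 0.38, and the dimmer ones were negative in both genotypes. The adipocyte marker mean was 4.8 to 5.1 in motoneurons and 12.2 to 13.3 in nerve, and the part of fat in the nerve level of these genes was not tested.

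The 17 sterol synthesis genes had a median difference of -0.87 in KO and -0.92 in WT on the deposited scale, beside -0.86 and -0.90 for all genes. After joint quantile normalization the medians were -0.37 and -0.39, beside 0.25 and 0.23 for all genes, and after centring 0.91 and 0.84, beside 0.92 and 0.86. Hmgcs1, HMG-CoA synthase, read 14.84, 14.96 and 14.82 in KO motoneurons and 14.91, 14.91 and 14.90 in WT motoneurons, against 15.40, 15.39 and 15.39 in KO nerve and 15.40, 15.39 and 15.43 in WT nerve, all close to the highest value of the data, 15.55, where differences may be compressed. Its difference was -0.52 in KO and -0.50 in WT, and its 4 other probe sets gave between -1.32 and -6.89 in KO. The remaining genes of the mevalonate pathway spanned -0.20 (Mvk, mevalonate kinase) to -1.82 (Fdps, farnesyl diphosphate synthase) in KO and -0.66 (Mvd, the decarboxylase) to -1.87 (Fdps) in WT. Pmvk, the second kinase, differed by -0.57 in KO and -0.92 in WT, and Idi1, the isomerase that gives dimethylallyl diphosphate, by -1.63 and -1.41.

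Fdft1, squalene synthase, differed by -0.70 in KO and -0.65 in WT, and Sqle, squalene epoxidase, by -0.68 and -0.57. The next enzyme stood apart from both. Lss, which closes the sterol rings to form lanosterol, read 9.44, 9.99 and 9.57 in KO motoneurons and 9.91, 9.84 and 8.96 in WT motoneurons, against 12.24, 11.93 and 12.31 in KO nerve and 12.01, 12.25 and 12.52 in WT nerve. The tissues did not overlap, and Lss differed by -2.49 in KO (adjusted p = 1.28e-06 by limma) and -2.69 in WT (adjusted p = 3.59e-05), and by -0.72 and -0.93 after centring. Its 2 other probe sets differed by -2.04 and -1.58 in KO and by -2.07 and -1.78 in WT. Of the 17 sterol synthesis genes, it was the one to pass as lower on all 3 scales in both genotypes.

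Between lanosterol and cholesterol, the deposited differences ran from -0.69 (Hsd17b7, a 3-ketosteroid reductase) to -1.88 (Sc5d, which introduces the C5 double bond) in KO, and from -0.49 to -2.02 for the same genes in WT. Sc5d stayed negative after centring, at -0.10 in KO and -0.26 in WT, without passing. Cyp51, the lanosterol demethylase, differed by -0.87 in KO and -1.02 in WT, Msmo1, the C4 methyl oxidase, by -1.55 and -1.60, and Nsdhl, its partner dehydrogenase, by -1.04 and -0.74. Tm7sf2, a sterol C14 reductase, differed by -1.38 in KO and -1.43 in WT, Ebp, the sterol isomerase, by -1.10 and -1.32, and Dhcr7, the last reductase, by -0.86 and -0.90. All 6 of these were positive after centring.

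The control genes divided. Insig2, the INSIG isoform that does not depend on SREBP, was the member with positive differences on every scale. It read 11.13, 10.89 and 11.19 in KO motoneurons and 11.62, 11.69 and 11.01 in WT motoneurons, against 10.99, 11.01 and 10.95 in KO nerve and 11.20, 10.91 and 11.11 in WT nerve. The tissues overlapped on the deposited scale, where the differences of 0.081 in KO (adjusted p = 0.521 by limma) and 0.37 in WT (adjusted p = 0.118) did not pass; after joint quantile normalization they were 0.91 and 1.16 and passed. One of its 2 other probe sets gave -0.36 in KO and -0.48 in WT, so the direction was not shared by all probe sets of the gene. Insig1, the SREBP-induced isoform, differed by -0.77 in KO and -0.52 in WT. The log ratio of Insig1 to Insig2 differed between motoneurons and nerve by -0.86 in KO and -0.89 in WT. Srebf1, which drives fatty acid genes, differed by -2.36 in KO and -2.10 in WT, against -1.39 and -1.31 for Srebf2, which drives sterol genes, and -0.83 and -0.89 for Scap.

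Probe sets of the same gene gave different sizes of tissue difference. Of the 78 probe sets, 71 were lower and 1 higher in KO motoneurons, and 73 lower and 2 higher in WT motoneurons (limma). The 2 probe sets of Msmo1 gave -1.55 and -6.41 in KO and -1.60 and -6.19 in WT, those of Scd1 -2.24 and -5.73 in KO and -1.92 and -5.68 in WT. The actin control probe sets differed between their 3' and 5' ends by 1.50 to 1.97 in motoneurons and by 0.69 to 1.17 in nerve. The Gapdh control probe sets showed no such gap, at 0.82 to 0.95 in motoneurons and 0.73 to 1.03 in nerve. The part of RNA integrity in the size of these differences was not tested.

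In motoneurons, no member differed between genotypes beyond the threshold. None of 34 had an adjusted p under 0.05 (limma, 0 of 45037 probe sets in all, smallest member adjusted p = 0.124). Over all 78 probe sets of the members the smallest adjusted p by limma was 0.108. It came from a second probe set of Elovl5 (-0.21), while the probe set that stood for Elovl5 gave -0.024. The unadjusted p was under 0.05 for 9 members, where the background was 17.0% of all probe sets and 26.6% of those with a mean above the median, so the share of members was near that of other bright probe sets. Values of the genotypes did not overlap for 9 members, beside 22.5% of all probe sets and 31.7% of the brighter ones. The member median was 0.035 with 20 values above zero and 14 below. The 95% interval lay within 0.5 log2 units of zero for 17 members and within 1 unit for 31; Mvk, Fa2h and Ugt8a reached beyond 1.

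**Figure D2:**
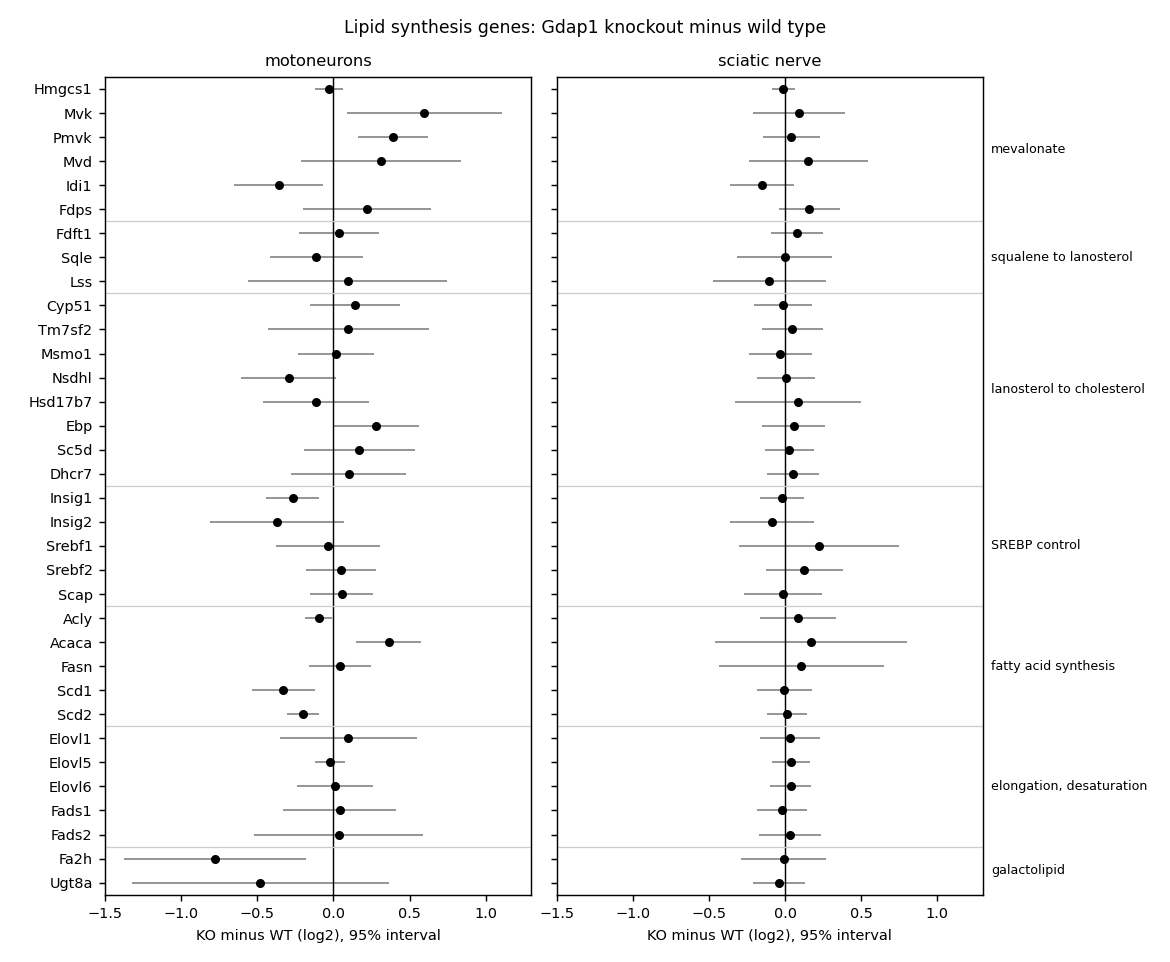
Difference between Gdap1 knockout and wild type (log2, x axis) in motoneurons and in sciatic nerve for each of the 34 genes, with 95% confidence intervals from limma over 3 arrays per genotype. The median half-width of the intervals is 0.30 in motoneurons and 0.20 in nerve, though those of Fasn and Srebf1 reach past 0.5 in nerve only. Fa2h (-0.78) and Mvk (0.60) lie farthest from zero in motoneurons, and in nerve every interval contains zero.

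Both kinases of the mevalonate pathway had higher values in KO motoneurons. Mvk read 10.77, 11.52 and 10.88 in KO and 10.40, 10.25 and 10.72 in WT, a difference of 0.60 (SE 0.22, unadjusted p = 0.0268, adjusted p = 0.233 by limma). Pmvk read 12.93, 13.11 and 12.90 in KO and 12.67, 12.40 and 12.71 in WT, a difference of 0.39 (SE 0.10, unadjusted p = 0.00461, adjusted p = 0.136). Neither gene's groups overlapped, and the second probe set of Mvk gave 0.51. Idi1, farther down the same route, ran the other way, at 12.37, 12.64 and 12.36 in KO and 12.96, 12.93 and 12.56 in WT, a difference of -0.36 (SE 0.13, adjusted p = 0.218); its groups overlapped, and its second probe set gave -0.43. Insig1, the feedback regulator, read 13.72, 13.84 and 13.55 in KO and 14.02, 13.97 and 13.91 in WT, a difference of -0.27 (SE 0.075, adjusted p = 0.154), without overlap.

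On the probe sets that stood for them, the stearoyl-CoA desaturases had lower values in KO motoneurons and the carboxylase a higher one. Scd2 read 13.67, 13.61 and 13.65 in KO and 13.84, 13.79 and 13.90 in WT, a difference of -0.20 (SE 0.046, unadjusted p = 0.00270, adjusted p = 0.124 by limma), but its 2 other probe sets gave 0.10 and 0.37. Scd1 read 12.87, 13.17 and 12.90 in KO and 13.37, 13.22 and 13.33 in WT, a difference of -0.33 (SE 0.090, adjusted p = 0.151), but its second, dimmer probe set gave -0.041. Acaca read 12.29, 12.36 and 12.18 in KO and 11.97, 11.77 and 12.001 in WT, a difference of 0.36 (SE 0.092, adjusted p = 0.136), and its second probe set gave 1.09. All 3 were separated between the genotypes without passing.

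Fa2h had the most negative difference of the members, -0.78 (SE 0.26, 95% interval -1.38 to -0.18, adjusted p = 0.201 by limma), with 9.76, 9.11 and 9.48 in KO and 10.72, 10.10 and 9.87 in WT. Ugt8a differed by -0.48 with overlapping groups, and its second probe set, far dimmer, by 1.82. The 9 oligodendrocyte markers had lower means in KO for 9 of 9 (median -0.35, means of 10.94, 10.46 and 10.73 in KO and 11.38, 10.80 and 11.03 in WT). The endothelial and mural markers had lower means in KO for 7 of 7 (median -0.37) and the astrocyte markers for 5 of 8 (median -0.21). The part of any of these cells in the Fa2h difference was not tested.

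**Figure D3:**
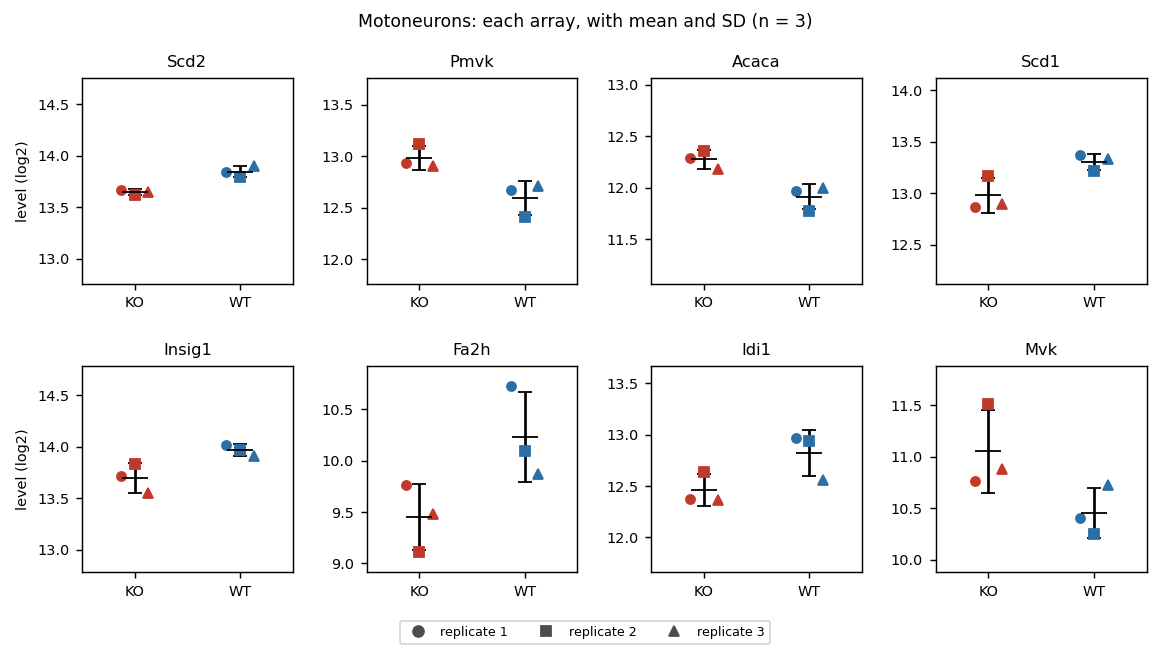
Level (log2, y axis) on each motoneuron array for the 8 members with the smallest unadjusted p, KO left and WT right, with the mean and SD of 3 arrays; every panel spans 2 log2 units. The genotypes are separated for 7 genes and overlap for Idi1, and Fa2h and Mvk have the widest spread within a genotype.

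Within each genotype of motoneurons, 1 array had most of the highest sterol values. KO replicate 2 had the highest value of its group for 17 of 17 sterol synthesis genes, where 39.2% of all probe sets and 37.8% of the brighter ones had their highest KO value on that array. Their mean level was 11.98, 12.41 and 11.99 on the 3 KO arrays and 12.03, 11.96 and 12.12 on the 3 WT arrays. The same KO array had the lowest value of all 6 motoneuron arrays for Fa2h and Ugt8a, the lowest oligodendrocyte marker mean and the low Xist value. Without it, the difference was 0.37 for Mvk, 0.32 for Pmvk and -0.61 for Fa2h, and the member median was -0.058. In WT, replicate 3 had the highest value for 13 of 17 sterol synthesis genes, beside 36.7% of all probe sets and 41.1% of the brighter ones. The motoneuron marker mean was highest on the same arrays, at 11.86, 12.06 and 11.80 in KO and 11.96, 11.89 and 12.10 in WT, and the astrocyte marker mean was lowest of all 6 on KO replicate 2, at 10.92, 10.56 and 10.90 in KO and 11.25, 10.91 and 11.17 in WT. The part of these differences in material in the sterol values was not tested.

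**Figure D4:**
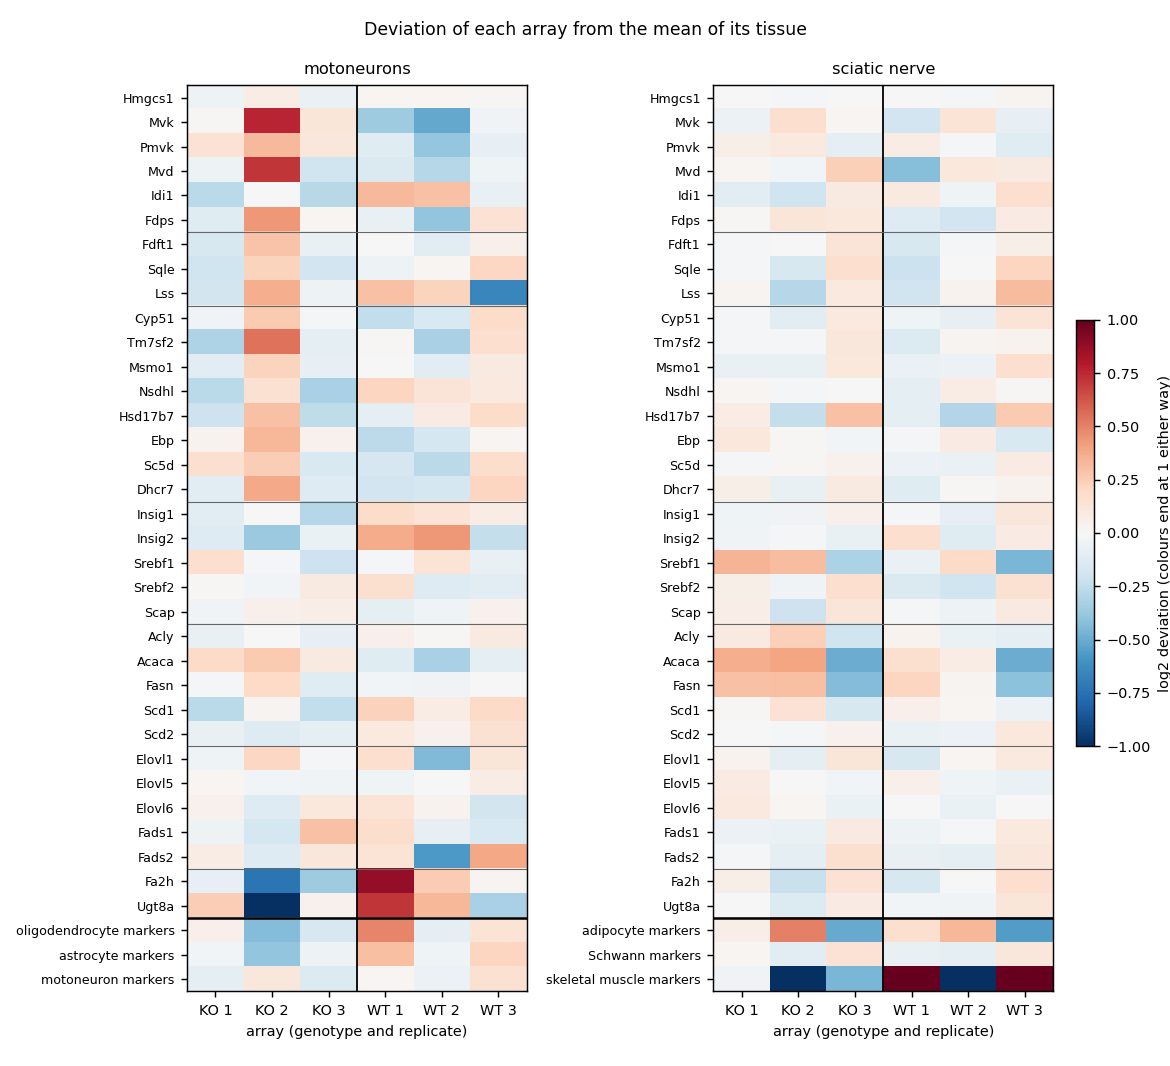
Deviation of each array (columns) from the mean of its 6 tissue arrays (log2, colour scale ending at 1 either way) for the 34 genes, with marker means below the thick line; KO arrays stand left of WT arrays. Motoneuron KO replicate 2 is high for the sterol genes and low for Fa2h and Ugt8a, and replicate 3 of both genotypes in nerve is low for Acaca, Fasn and Srebf1.

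Without WT replicate 3, 5 members passed (Scd2, Insig2, Pmvk, Acaca and Idi1) among 4646 probe sets in all, against 0 with all arrays. With limma's array weights, 6 members passed (Scd2, Scd1, Pmvk, Acaca, Idi1 and Insig1), among 2929 probe sets. Ugt8a aside, the members outside the 8 with the smallest p had differences of -0.37 (Insig2) to 0.31 (Mvd). Hmgcs1 differed by -0.031, while 3 of its other probe sets gave -0.33, -0.29 and -0.16 and the dimmest 0.53.

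In sciatic nerve the genotypes were closer. None of the 34 members passed (limma, 0 of 45037 probe sets, every member adjusted p = 1), and none had an unadjusted p under 0.05, beside 2.31% of all probe sets and 1.01% of those with a mean above the median. No member's groups were separated, beside 7.26% and 5.19%. Differences ran from -0.15 (Idi1) to 0.22 (Srebf1) with a median of 0.034. Single arrays moved these small values: without 1 array at a time Srebf1 ran from 0.048 to 0.44, Idi1 from -0.23 to -0.087, Srebf2 from 0.060 to 0.23, Fdft1 from 0.018 to 0.13, Fdps from 0.10 to 0.24 and Elovl5 from 0.010 to 0.075, with Mvd (-0.020 to 0.25) and Acly (-0.0096 to 0.21) crossing zero. The 95% interval lay within 0.25 log2 units of zero for 17 members and within 0.5 for 30, and within 1 for all 34. Differences of 1 log2 unit were thus outside the interval of every member, while for Mvd, Srebf1, Acaca and Fasn the interval reached past 0.5. In nerve, Hmgcs1 (15.39 to 15.43) and Scd1 (15.06 to 15.37) read close to the highest value of the data, 15.55. Differences and intervals of these genes may be compressed there.

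Fdps had the smallest unadjusted p, at 13.57, 13.69 and 13.67 in KO and 13.43, 13.37 and 13.65 in WT, a difference of 0.16 (95% interval -0.040 to 0.36, unadjusted p = 0.101 by limma). Idi1 read 14.04, 13.96 and 14.25 in KO and 14.25, 14.12 and 14.33 in WT, a difference of -0.15 (95% interval -0.36 to 0.061). Both genotypes overlapped for each gene. Of the others with the smallest p, Srebf2 differed by 0.13, Fdft1 by 0.078, Mvd by 0.15, Acly by 0.087 and Elovl5 by 0.040. The myelin galactolipid genes had differences near zero, -0.0095 for Fa2h (95% interval -0.29 to 0.27) and -0.039 for Ugt8a (95% interval -0.21 to 0.13). The skeletal muscle markers varied widely, at 10.51, 9.33 and 10.08 in KO and 13.52, 7.97 and 11.84 in WT, and their part in the nerve values was not tested.

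The widest spread in nerve was within genotypes, in genes of fatty acid synthesis. Acaca read 14.55, 14.58 and 13.69 in KO and 14.35, 14.26 and 13.69 in WT, Fasn 14.62, 14.63 and 13.89 in KO and 14.54, 14.36 and 13.92 in WT, and Srebf1 12.61, 12.58 and 11.95 in KO and 12.20, 12.46 and 11.81 in WT. In each genotype the third array was the lowest for all 3 genes, and also for Acly (14.84, 14.99 and 14.55 in KO and 14.79, 14.69 and 14.65 in WT) and Scd1 (15.24, 15.37 and 15.06 in KO and 15.27, 15.24 and 15.17 in WT). The adipocyte marker mean was 12.82, 13.26 and 12.25 in KO and 12.91, 13.09 and 12.19 in WT, lowest on the same 2 arrays. Fa2h (14.09, 13.81 and 14.18 in KO and 13.87, 14.04 and 14.20 in WT) and Ugt8a were highest on those arrays, as was the myelinating Schwann cell marker mean, at 14.24, 14.11 and 14.37 in KO and 14.14, 14.12 and 14.34 in WT. The sterol synthesis genes were highest of their group on the third array for 11 of 17 in KO and 12 of 17 in WT, where 41.5% and 33.5% of the brighter probe sets were. The part of fat in these values was not tested.

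**Figure D5:**
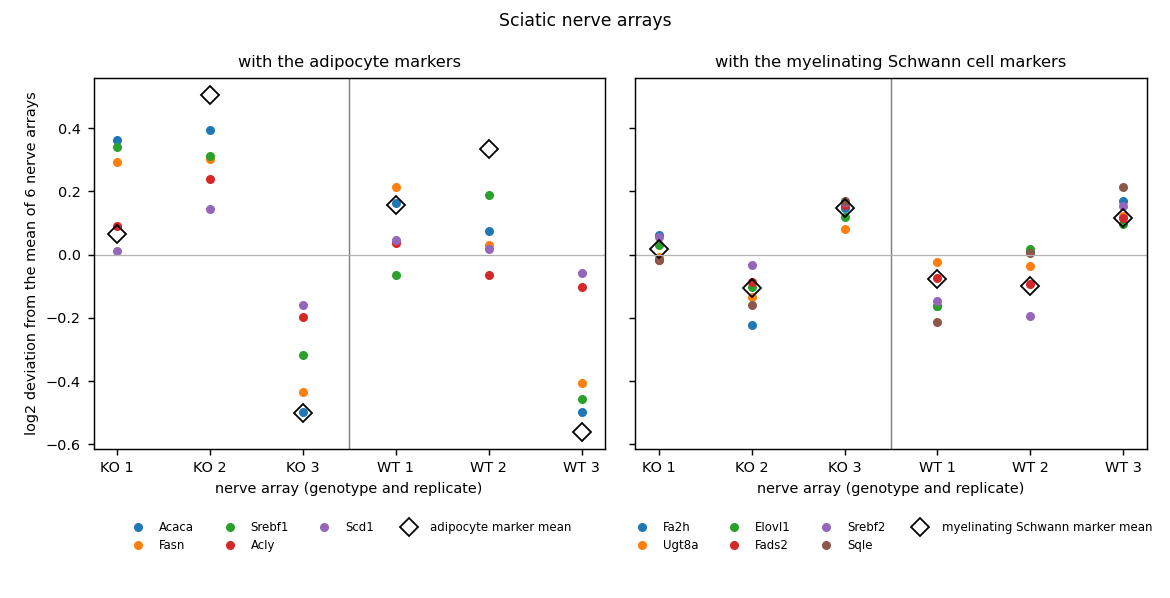
Deviation from the mean of 6 nerve arrays (log2, y axis) on each array, KO left and WT right, for 5 genes with the adipocyte marker mean (left panel, open diamonds) and 6 genes with the myelinating Schwann cell marker mean (right panel), all picked after their values were seen. KO replicate 3 and WT replicate 3 are the lowest arrays of their genotype for each of the 5 genes and the highest for each of the 6.

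The genotype effect did not differ detectably between the tissues for any member (limma interaction over 12 arrays, 0 of 34 and 0 of 45037 probe sets). An unadjusted p under 0.05 was found for 5 members, beside 7.54% of all probe sets and 10.2% of the brighter ones. These were Scd2 (-0.21), Pmvk (0.35), Scd1 (-0.32), Fa2h (-0.77) and Insig1 (-0.25), with adjusted p of 0.621 to 0.639. For Fa2h the effect in motoneurons minus that in nerve had a 95% interval of -1.42 to -0.12.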

How the data were processed

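The deposited values are log2 expression per probe set on Affymetrix mouse arrays; the authors made them with Affymetrix Expression Console 1.1, per the submitters' processing notes, with summarization and background steps not given in the sources used here. That they are log2 was judged by their range. Precision is limited by the number of arrays, 3 per group. Of 45101 probe sets, 64 controls were left out and 45037 tested; 34945 had exactly 1 symbol by platform annotation, 932 several and 9160 none, and symbols were updated through the RefSeq table of GRCm38.p6.

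Each comparison (KO minus WT within a tissue, motoneuron minus nerve within a genotype, and the interaction) was tested two-sided by limma 3.58.1 under R 4.3.3, using lmFit and eBayes (trend over the mean level); p-values were adjusted by Benjamini-Hochberg over 45037 probe sets at 0.05. Alternatives were other scalings, a filter on dim probe sets, no trend, array weights, averaged probe sets, 1 fit over all arrays, covariates, a replicate block and leaving out arrays; 1 (nerve without both arrays of high Xist) was chosen after seeing the data. No replicate labels were used as pairs in the reported fits. Deviations of same-numbered arrays correlated at 0.026 to 0.31 in nerve and -0.079 to 0.090 in motoneurons. Members were named by rule: levels for all, genotype differences for the 8 of smallest unadjusted p per tissue and 5 for the interaction, tissue differences for all, and up to 3 genes per further list. Other members, probe sets and arrays that the text singles out were chosen after their values were seen. The members and lists were chosen with earlier results of these data known. The fit was tested on simulated data: 45037 probe sets with the real mean levels and the variances limma estimated, drawn independently. In each comparison 67 probe sets, picked at random from all levels, were altered by 1 log2 unit and 66 by 2. A change of 1 was called for 52.2% of them in the nerve comparison, 34.3% in the motoneuron comparison and 14.9% in the interaction. A change of 2 was called for 95.5%, 90.9% and 65.2%. These rates were not measured for the members, which are brighter than the median probe set in both tissues. Promoter windows came from RefSeq. Figures used matplotlib 3.10.9.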

Additional observations from a re-analysis of the deposited data

How the results depend on the processing

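Across normalization, filter, trend, weighting, covariate, joint fit and single-array alternatives, no nerve genotype or interaction fit called a member. In motoneurons, 6 members passed with array weights (2 higher and 4 lower) and 0 with every other setting that kept all arrays. Leaving out single arrays gave 0 to 5 members (0 to 2 higher, 0 to 3 lower), the 5 without WT replicate 3. The cause was not tested. The member median of the genotype difference was -0.0076 in nerve after centring and -0.0024 to 0.047 without single arrays; in motoneurons it was -0.074 with Xist as a covariate and -0.058 to 0.060 without single arrays, and the interaction median was -0.13 with Xist as a covariate and -0.087 to 0.0072 without single arrays. Among the members named in each comparison, the differences that turned were Fdps (-0.069) and Fdft1 (-0.017) in nerve with probe sets averaged per gene, Elovl5 (-0.00099) in nerve after centring, and Scd2 with the mean of probe sets (0.089 in motoneurons and 0.11 in the interaction). Over all 34 members in nerve, 21 differences were above zero as deposited and 13 after centring. Without single arrays, Mvd in nerve ran from -0.020 to 0.25 and Acly from -0.0096 to 0.21. All probe sets called in motoneurons numbered 0 in the fit reported, 61 above the median level, 828 with 12 arrays in 1 fit, 2929 with array weights and 0 to 4646 without single arrays; in the interaction they numbered 0 to 238 without single arrays.

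Motoneuron minus nerve depended on scale. With both tissues quantile normalized together the member median was -0.76 in KO and -0.70 in WT, with 2 higher in each. After centring it was 0.43 and 0.44, with 18 higher and 9 lower in KO and 19 higher and 9 lower in WT. With the mean of probe sets it was -1.65 and -1.50. One member, Insig2, passed as higher in WT with array weights and without WT motoneuron replicate 3. Without single arrays the median ran from -1.36 to -1.26 in KO and from -1.34 to -1.28 in WT, with 31 to 33 members lower in KO and 31 to 33 in WT, and 0 to 1 higher in WT. Joint quantile normalization turned Mvk (0.60), Mvd (0.25) and Acly (0.16) in KO, and Mvk (0.15), Mvd (0.10), Sqle (0.024), Hsd17b7 (0.082) and Acly (0.34) in WT. Centring turned Hmgcs1 (1.26), Mvk (1.58), Pmvk (1.21), Mvd (1.27), Idi1 (0.15), Fdft1 (1.08), Sqle (1.09), Cyp51 (0.91), Tm7sf2 (0.40), Msmo1 (0.23), Nsdhl (0.74), Hsd17b7 (1.08), Ebp (0.67), Dhcr7 (0.92), Insig1 (1.002), Srebf2 (0.39), Scap (0.95), Acly (1.45), Fasn (0.14), Scd2 (0.47) and Elovl5 (1.28) in KO, and Hmgcs1 (1.26), Mvk (1.05), Pmvk (0.84), Mvd (1.099), Idi1 (0.35), Fdft1 (1.11), Sqle (1.19), Cyp51 (0.74), Tm7sf2 (0.33), Msmo1 (0.16), Nsdhl (1.020), Hsd17b7 (1.27), Ebp (0.44), Dhcr7 (0.86), Insig1 (1.24), Srebf2 (0.45), Scap (0.87), Acly (1.62), Fasn (0.19), Scd2 (0.67) and Elovl5 (1.33) in WT. Insig2 turned to -0.053 in KO with the mean of probe sets. Centring itself moved the median of all genes from -0.86 to 0.92 in KO and from -0.90 to 0.86 in WT. Joint quantile normalization moved it to 0.25 in KO and 0.23 in WT. The Insig2 turn came from averaging probe sets on the deposited scale.

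Replicate numbers paired some nerve arrays but few others. In nerve, deviations of same-numbered arrays correlated at 0.026, 0.31 and 0.22. Both arrays of replicate 2 and of replicate 3 there correlated best with their own number across genotypes. In motoneurons this held for replicate 1 only, with correlations of -0.079 to 0.090. With replicate as a block, 0 members passed in nerve, in motoneurons and in the interaction. Between tissues 31 passed in KO and 32 in WT, beside 36960 and 36402 of all 45037 probe sets. The replicate block moved no count of calls by over 1.5 times.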

Other observations

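Neighbouring lipid genes, from lists chosen with earlier results known, gave no call between genotypes in either tissue (limma). In motoneurons, 14 of 17 genes of sphingolipid synthesis had lower values in KO (median -0.24), where the median of all genes was 0.019 and 52.7% of them had higher values. In the same arrays the oligodendrocyte markers were lower in KO for 9 of 9 (median -0.35), the endothelial and mural markers for 7 of 7 (median -0.37) and the astrocyte markers for 5 of 8 (median -0.21), and their part in these values was not tested. Cers5, a ceramide synthase, differed by -0.99 (SE 0.13, adjusted p = 0.0904 by limma), Sgms2, a sphingomyelin synthase, by -0.98 (adjusted p = 0.108) and Sptssa, a small subunit of serine palmitoyltransferase, by -0.84 (adjusted p = 0.112). An unadjusted p under 0.05 was reached by 7 of the 17, beside 17.0% of all probe sets and 26.6% of those with a mean above the median. In nerve, 11 of the 17 had lower values (median -0.063). Of 24 other fatty acid genes, 12 were above and 12 below zero in motoneurons, with the mitochondrial synthase Oxsm at -1.41 (adjusted p = 0.108) and the acyl-CoA synthetase Acsl4 at -1.08 (adjusted p = 0.138). Of 17 genes of cholesterol transport and turnover, the oxysterol-binding protein gene Osbp differed by -0.46 (adjusted p = 0.102) and Cyp46a1, the neuronal cholesterol hydroxylase, by 0.50 (adjusted p = 0.120). The 7 genes of sphingolipid breakdown had a median of 0.025 and the 6 other sterol and SREBP genes one of -0.0096.

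Between tissues, differences of further lipid genes are given as deposited and, after that, centred on array medians. Cers2, the ceramide synthase that takes very long acyl chains, differed between motoneurons and nerve by -4.77 in KO and -4.30 in WT, and after centring by -2.997 and -2.54. Sptlc2, a catalytic subunit of serine palmitoyltransferase, differed by -2.46 in KO and -2.83 in WT, and after centring by -0.68 and -1.07. Sptssb, another small subunit, was higher in KO motoneurons by 6.24 (8.02 after centring), the brain acyl-CoA synthetase Acsl6 by 5.07 (6.84), and Elovl2 was higher in WT motoneurons by 3.63 (5.39). Apoe, the lipid carrier of glia, differed by -4.36 in KO, and after centring by -2.59. Apod differed by -3.01 in KO and -2.84 in WT, and after centring by -1.23 and -1.08. The lipoprotein receptor Scarb1 differed by -3.73 in KO and -3.71 in WT, and after centring by -1.95 and -1.95. All of these passed (adjusted p of at most 1.49e-06 by limma) on the deposited scale, where 67.5% of probe sets were lower in KO motoneurons.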
